A study of Mus musculus with 5 samples.

Results

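Ovarian macrophages were described in single-cell RNA sequencing of whole ovaries from C57BL6/J mice at 2, 3, 4, 5 and 6 wk. The animals were untreated, and 1 library stood for each age, so no age had a replicate. Ovaries were dissociated with trypsin, and dead cells were removed by sorting before library construction with the 10x Genomics 3′ v3.1 kit. How many animals gave each library is not given in the sources used here. The value counted is the UMI, a tag that marks 1 captured RNA molecule. The cells were chosen by their measured UMIs. A cell was taken as a macrophage when it held at least 500 detected genes, less than 20% mitochondrial UMIs, a UMI of at least 3 of the 5 genes C1qa, C1qb, C1qc, Csf1r and Pf4, and a UMI of Laptm5. It was also required to hold at most 2 UMIs of Amh, a granulosa cell gene, and none of Dcn (stroma) or Cdh5 (endothelium). Of 48163 deposited cells, 137 met this rule. They numbered 7, 11, 28, 53 and 38 at 2, 3, 4, 5 and 6 wk.

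Macrophages are phagocytes that clear dying cells, sense microbes and recruit other leukocytes through chemokines. In the ovary they are found in the stroma and theca and around regressing follicles and corpora lutea. Tissue macrophages are commonly told apart by Lyve1, Folr2 and Mrc1, carried by long-lived resident cells, and by MHC class II, which presents peptides to CD4 T cells and is gained by part of the population after birth. Their survival depends on CSF1 receptor signalling.

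The cells carried macrophage genes that the rule did not name. Each of the 22 genes of a macrophage identity list was detected, and the most abundant was Lyz2, lysozyme, with 8999 UMIs in 137 of 137 cells. Tyrobp, a signalling adaptor, was found in 136 cells and Fcer1g, its Fc receptor partner, in 134. Adgre1, which encodes F4/80, was found in 119 cells, Cd68 in 126, Aif1 in 131 and Fcgr1, the high-affinity IgG receptor, in 105. Markers of other leukocytes were scarce. All 4 NK cell markers and all 4 mast cell markers had 0 UMIs, as did the T cell genes Cd3e, Cd3d, Cd3g and Trac and the B cell genes Cd79a and Ms4a1. Of the B cell genes described here Cd79b was detected, with 69 UMIs in 43 cells. The 8 dendritic cell markers summed to 10.7, 37.7, 41.1, 76.9 and 50.3 UMIs per 1000000 (CPM) from 2 to 6 wk, led by Itgax with 23 UMIs.

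The rule was met with a wide margin by most cells. Of the 137, 119 held all 5 marker genes, 16 held 4 and 2 held 3. The 2 cells with 3 markers had 3 and 12 marker UMIs, and the 2 cells left just outside with 2 markers had 2 and 9. By contrast the median cell with 5 markers had 183. A further 58 cells with the macrophage markers were left out, of which 48 held Dcn (23 of them a single UMI), 17 held more than 2 Amh UMIs and 11 held Cdh5. Apart from these, 15 cells, 13 of them at 5 wk, lacked Laptm5, and 5 lay outside the filter on genes and mitochondrial UMIs. Median depth was 11334, 5518, 6758, 8951 and 9698 UMIs per macrophage from 2 to 6 wk, and summed UMIs were 93297, 79659, 219153, 546357 and 417274. The cells at 2 and 3 wk were thus few and their summed depth was lowest. Scrublet called 1686 of 48163 cells doublets and 0 of the macrophages. Across libraries 273 cell barcodes occurred more than once, of which 1 belonged to a macrophage.

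The share of macrophages among cells passing the filter on genes and mitochondrial UMIs was 0.0842% at 2 wk, where 7 of 8312 cells gave an exact binomial 95% interval of 0.0339 to 0.173%. It was 0.133% at 3 wk (0.0664 to 0.238%) and 0.288% at 4 wk (0.192 to 0.416%). The highest share, 0.753%, was seen at 5 wk (0.564 to 0.984%), and the share at 6 wk was 0.401% (0.284 to 0.550%). The 5 wk share was 5.66-fold that at 3 wk (2.92 to 12.01) and 8.94-fold that at 2 wk (4.05 to 23.3), and the 6 wk share was 0.533 of that at 5 wk (0.342 to 0.823). Intervals cover counting error only, and the spread between animals was not measured. The intervals of 2 and 3 wk overlapped, as did those of 4 and 6 wk, and the 4 wk share was 2.17-fold that at 3 wk (1.046 to 4.82).

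Other leukocytes were taken as cells with Ptprc and Laptm5 that met the same limits on Amh, Dcn and Cdh5 but not the macrophage markers, so the 58 cells left out above are not among them. They numbered 29, 22, 30, 45 and 48. Their share at 5 wk was 2.40-fold that at 3 wk (1.41 to 4.20). The intervals of this ratio and of that of macrophages overlapped between 2.92 and 4.20, and the difference between them was not tested. Of the macrophages and other leukocytes counted together, macrophages made up 19.4% at 2 wk, 33.3% at 3 wk, 48.3% at 4 wk, 54.1% at 5 wk and 44.2% at 6 wk. The 2 classes had unlike entry rules, since macrophages needed no Ptprc UMI. Other leukocytes were shallower, with medians of 7808, 4698.5, 4421.5, 4767 and 6727 UMIs from 2 to 6 wk. The part of depth and rule in these percentages was not tested. The software that made the tables was Cell Ranger 3.1.0 for 2, 3 and 4 wk and Cell Ranger 6.0.1 for 5 and 6 wk, and for contrasts between these groups of libraries age and software version cannot be told apart.

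**Figure D1:**
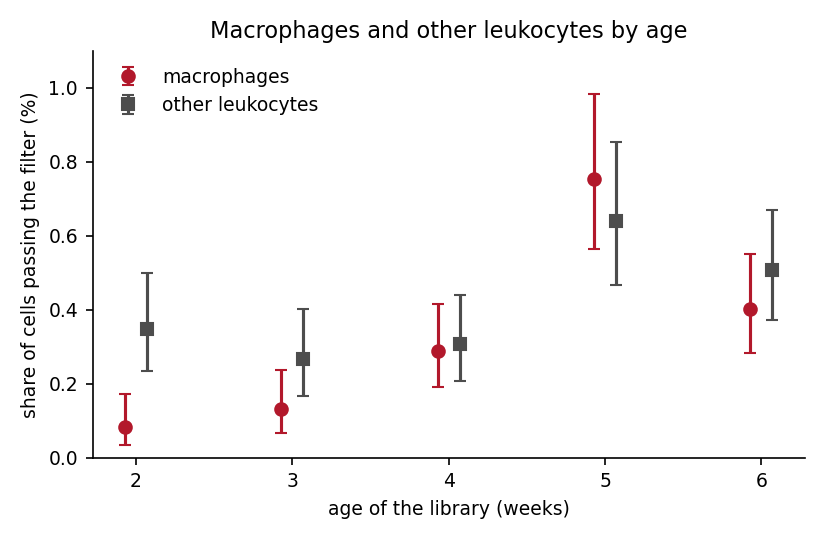
Share of cells passing the filter (y axis, %) that were macrophages (red circles) or other leukocytes (grey squares) at each age (x axis, weeks), 1 library per age. Bars are exact binomial 95% intervals. The macrophage share runs from 0.0842% at 2 wk to 0.753% at 5 wk.

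MHC class II genes differed between the ages. H2-Aa encodes the α chain and H2-Ab1 and H2-Eb1 encode β chains of the class II molecules, Cd74 encodes the invariant chain that guides them through the cell, and H2-DMa and H2-DMb1 encode the exchange factor that loads peptide. H2-Aa, H2-Ab1 and H2-Eb1 lie together at chr17:34282744-34287823, chr17:34257689-34269419 and chr17:34305867-34316674 (GRCm38). The genes of this group are controlled in common through short promoter elements, among them the X box and the Y box, on which the transactivator CIITA is assembled. The 150 bases before the start site are shown for H2-Aa, H2-Eb1 and H2-DMb1 (RefSeq, GRCm38.p6), because each of these genes was higher at 4, 5 and 6 wk than at 2 and 3 wk. Capitals mark TGATTGG, the core letters of the Y box and the inverse of a CCAAT box, and TGATGATG, letters of the X box.

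H2-Aa: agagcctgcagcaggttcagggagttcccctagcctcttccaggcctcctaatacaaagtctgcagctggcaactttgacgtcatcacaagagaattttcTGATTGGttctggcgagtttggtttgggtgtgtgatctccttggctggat
H2-Eb1: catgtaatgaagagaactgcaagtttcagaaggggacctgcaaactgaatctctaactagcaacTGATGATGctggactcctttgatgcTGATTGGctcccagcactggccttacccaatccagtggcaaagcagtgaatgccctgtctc
H2-DMb1: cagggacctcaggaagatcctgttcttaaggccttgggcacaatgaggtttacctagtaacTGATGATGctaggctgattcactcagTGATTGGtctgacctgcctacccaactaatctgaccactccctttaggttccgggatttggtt

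The windows are chr17:34287824-34287973 on the minus strand for H2-Aa, chr17:34305717-34305866 on the plus strand for H2-Eb1 and chr17:34153041-34153190 on the plus strand for H2-DMb1. TGATTGG began 50, 61 and 63 bases before the start of H2-Aa, H2-Eb1 and H2-DMb1, and TGATGATG began 86 and 89 bases before that of H2-Eb1 and H2-DMb1. Searched on both strands of the 250 bases before the start, TGATTGG occurred in 6 of the 8 class II presentation genes with a promoter in the table used and in 7.23% of 32851 promoters. TGATGATG occurred in 2 of the 8 and in 1.24% of all promoters. A match is a description of letters.

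H2-Aa had 0, 5, 302, 1584 and 1162 UMIs from 2 to 6 wk, or 0, 62.8, 1378, 2899 and 2785 CPM. H2-Ab1 had 0 UMIs at both 2 and 3 wk and 1287, 2407 and 2277 CPM at 4, 5 and 6 wk. H2-Eb1 also had 0 UMIs at 2 and 3 wk and 917, 2152 and 1747 CPM later. All 3 genes were at or near 0 in the macrophages of 2 and 3 wk and well above it from 4 wk on. With 3 UMIs taken as the floor of a library, H2-Ab1 at 4 wk was at least 34.2-fold above 3 wk, and H2-Aa at 4 wk was 21.95-fold above 3 wk (9.305 to 68.1). At 4 wk 5 of the 28 cells held 637 of the 785 UMIs of the 3 genes, and the interval does not cover spread between cells. These 4 and 3 wk libraries were both made with Cell Ranger 3.1.0. Cd74 was detected at all ages, at 461, 238.5, 5261, 5689 and 6562 CPM, and its level at 4 wk was 22.1-fold that at 3 wk (14.1 to 36.8). H2-DMb1 had 42.9, 25.1, 160, 276 and 201 CPM and H2-DMa 107, 50.2, 214.5, 284 and 228 CPM. Cd86, a costimulatory ligand, was level, at 354, 452, 379, 340 and 362 CPM.

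Counted per cell, at least 3 UMIs over H2-Aa, H2-Ab1 and H2-Eb1 were held by 0 of 7 macrophages at 2 wk (3 cells of 7 would be 42.9%, the upper limit of a count of 0) and by 1 of 11 at 3 wk (9.09%, 0.230 to 41.3%). At 4 wk the share was 11 of 28 (39.3%, 21.5 to 59.4%), at 5 wk 33 of 53 (62.3%, 47.9 to 75.2%) and at 6 wk 30 of 38 (78.9%, 62.7 to 90.5%). The 7, 10, 28, 46 and 38 macrophages with at least 2000 UMIs were also thinned to 2000 UMIs. Their shares were then 0, 10, 28.6, 54.3 and 65.8%, with the same order of ages. Of granulosa cells, which should lack these genes, 0.186% met the same minimum at a median of 16736 UMIs, against 54.7% of macrophages at a median of 9034. The intervals of 3 and 4 wk before thinning overlapped. MHC class II was not uniform within an age. At 4 wk the sum of the 3 genes ran from 0 to 209 UMIs per cell with a median of 1, and 5 cells held 81.15% of it. At 5 wk the sum of the 3 genes ran from 0 to 649 UMIs per cell with a median of 10, and 5 cells held 51.5% of it. At 6 wk it ran from 0 to 346 with a median of 27.

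Other leukocytes did not share the early absence. In them H2-Aa, H2-Ab1 and H2-Eb1 summed to 2437 CPM at 2 wk and 10213 CPM at 3 wk, where macrophages had 0 and 62.8 CPM. From 4 to 6 wk the other leukocytes had 9926.5, 8951 and 12805 CPM and the macrophages 3582, 7458.5 and 6808.5 CPM. That class was not separated into its cell types here.

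**Figure D2:**
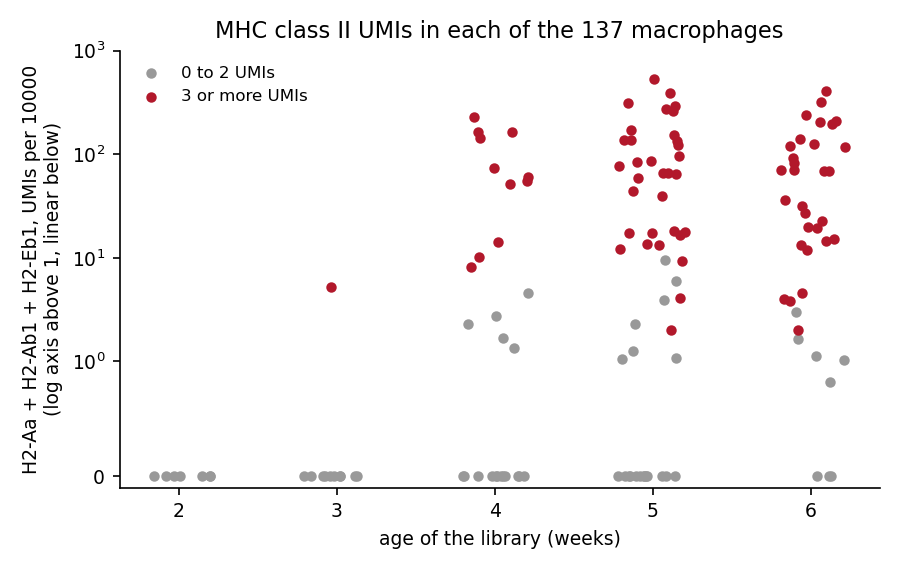
Summed UMIs of H2-Aa, H2-Ab1 and H2-Eb1 per 10000 UMIs (y axis, logarithmic above 1 and linear below) in each of the 137 macrophages at each age (x axis, weeks; points are spread sideways at random). Red points are cells with 3 or more of these UMIs: 0, 1, 11, 33 and 30 cells at 2 to 6 wk.

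To describe age across genes, the UMIs of the 5 and 6 wk macrophages were set against those of 2, 3 and 4 wk for the 3359 genes with at least 60 UMIs. A gene was counted as higher or lower when the ratio was at least 2 or at most 0.5 and the CPM of the 2 later libraries did not overlap that of the 3 earlier ones. By this rule 126 genes were higher (3.75% of those compared) and 89 lower (2.65%), and the median log2 ratio of all genes was -0.09. With median-of-ratios size factors the counts were 176 higher and 61 lower and the median was 0.06. Without the 4 wk library 211 genes were higher, and 316 were higher when macrophages with Dcn, Cdh5 or more Amh were kept. The ages are not replicates, so these are counts of genes past a size and carry no test. The shares 3.75% and 2.65% stand beside each list count below for these ages, and a short list would hold few or none at them. Of the 7 class II presentation genes over the minimum, H2-Aa, H2-Ab1, H2-Eb1 and H2-DMb1 were higher and none was lower, and their median log2 ratio was 1.22. H2-Eb1 had the largest ratio of these, 3.86 (3.33 to 4.48), and Cd74 reached 1.96 (1.84 to 2.08). With 2 and 3 wk alone as the base, the ratio of H2-Aa was 98.6.

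**Figure D3:**
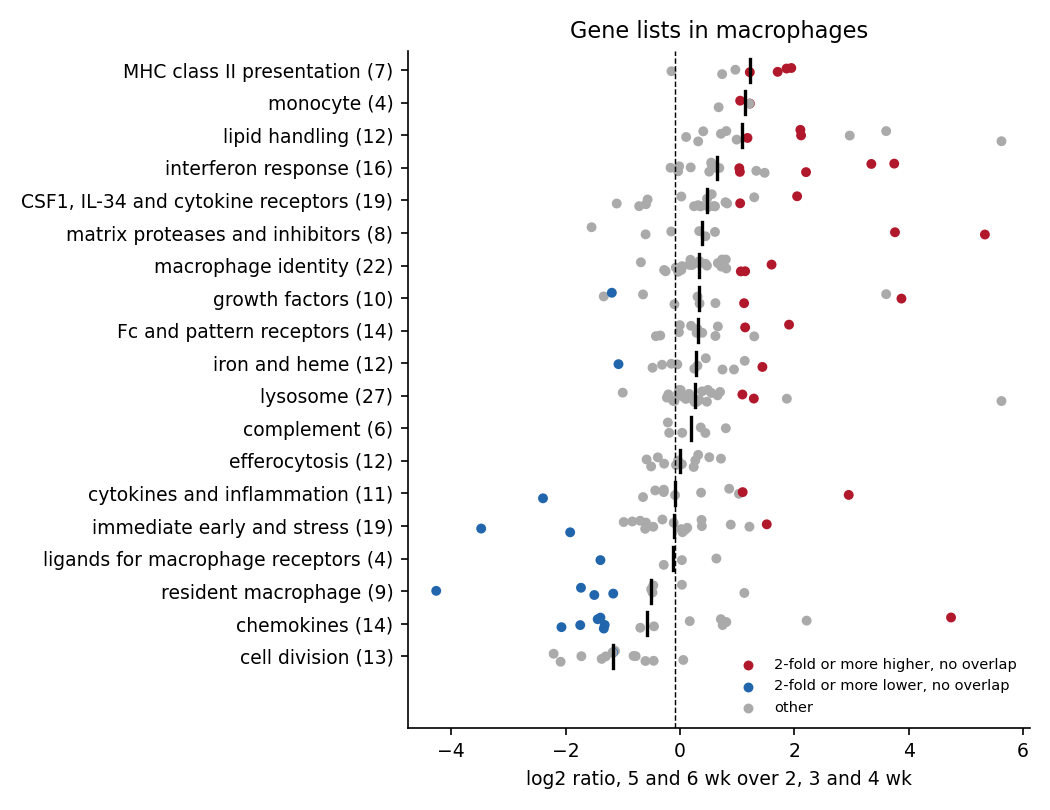
log2 ratio of 5 and 6 wk over 2, 3 and 4 wk (x axis) for genes of each list (y axis, number of genes compared in brackets). Red and blue points are genes past 2-fold without overlap, black bars list medians and the dashed line the median of all 3359 genes, -0.09; class II presentation has the highest list median, 1.22, and cell division the lowest, -1.17.

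Part of the resident macrophage genes had the opposite order. Lyve1, a hyaluronan receptor, was at 311, 389, 82.1, 12.8 and 7.19 CPM from 2 to 6 wk, which is 29, 31, 18, 7 and 3 UMIs. The 2 later libraries lay below all 3 earlier ones, and the 5 wk level was 0.0329 of that at 3 wk (0.0122 to 0.0762). The 2 wk value rested on 2 cells, 1 of which held 23 of the 29 UMIs. F13a1, the coagulation factor XIII A chain, was at 450, 1255, 356, 176 and 161 CPM. Cbr2, a carbonyl reductase, was at 643, 678, 397, 176 and 189 CPM, and Folr2, the folate receptor β, at 343, 226, 251, 119 and 120 CPM. Of 9 resident genes over the minimum these 4 were lower and none was higher, with a median log2 ratio of -0.50. Without the cell richest in Folr2, its ratio of 0.446 became 0.616 and no longer passed the fold. Mrc1, the mannose receptor and the most abundant gene of the list, was at 1522, 1858, 1031, 800 and 1153 CPM and did not separate the ages. Vsig4 and Clec4f, of other tissues' resident macrophages, had 0 UMIs.

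A class of cells with at least 2 of Lyve1, Folr2, Timd4, Cd163 and Mrc1 was described per age, and its order of ages changed on thinning. It held 3 of 7, 6 of 11, 16 of 28, 26 of 53 and 25 of 38 macrophages, or 42.9, 54.5, 57.1, 49.1 and 65.8%, with intervals that all overlapped. Thinned to 2000 UMIs per cell the shares were 28.6, 60, 39.3, 28.3 and 34.2%, so the 5 wk share was then the lowest and the 6 wk share lay below those of 3 and 4 wk. In granulosa cells the class was at 0.0930%. Of the 76 cells in this class, 37 also held MHC class II, 0 of them at 2 or 3 wk, 3 at 4 wk, 13 at 5 wk and 21 at 6 wk. Ccr2, which brings monocytes from blood into tissue, was at 64.3, 25.1, 54.8, 114 and 95.9 CPM but was found in only 18 cells.

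**Figure D4:**
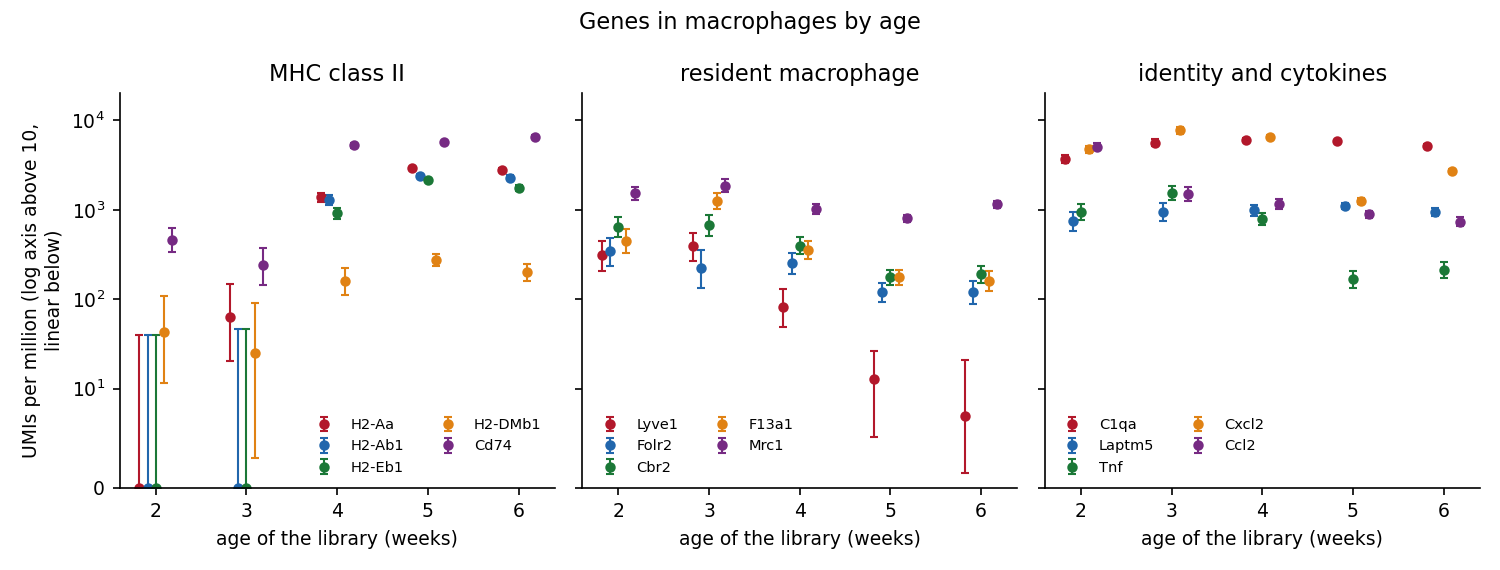
CPM in the macrophages of each library (y axis, logarithmic above 10 and linear below) against age (x axis, weeks) for MHC class II genes (left), resident macrophage genes (middle) and genes of identity and inflammation (right). Bars are exact Poisson 95% intervals; H2-Ab1 is at 0 at 2 and 3 wk and at 1287 at 4 wk, and Lyve1 runs from 311 at 2 wk to 7.19 at 6 wk.

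Part of the inflammatory chemokines were lower in the later libraries. Of 14 chemokine genes compared, 6 were lower and 1 was higher, with a median log2 ratio of -0.57. Cxcl2, which attracts neutrophils, was the most abundant, with 4738, 7720, 6479.5, 1243 and 2730 CPM from 2 to 6 wk. Ccl3, a ligand of Ccr1, was at 2926, 2536, 2427.5, 1105.5 and 937 CPM. Ccl2, the ligand of Ccr2, was highest at 2 wk, at 5080.5 CPM, and was at 1506, 1159, 895 and 733 CPM at the following ages. At 2 wk 202 of its 474 UMIs were in 1 cell, without which its ratio of 0.3815 became 0.501 and no longer passed the fold. Ccl7, Ccl24 and Cxcl1 were the other 3 lower genes, with ratios of 0.398 (0.361 to 0.439), 0.238 (0.148 to 0.378) and 0.369 (0.268 to 0.507). Ccl4 was at 3001, 4758, 3116.5, 2606 and 2358 CPM, and its ratio of 0.730 did not pass the fold. The higher gene was Cxcl9, an interferon-γ-induced ligand of Cxcr3, with 0 UMIs at 2, 3 and 4 wk and 186 and 11 at 5 and 6 wk. A single cell held 75.1% of these UMIs.

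Tnf, the cytokine that starts much of the inflammatory cascade, was at 954, 1557, 785, 167 and 213 CPM, with no overlap between the 2 later and 3 earlier libraries. Its ratio was 0.190 (0.159 to 0.228). In all other cells together, which include the 58 cells left out above, the Tnf ratio between the same ages was 1.096. Il1b, by contrast, was at 407, 515, 1729, 1581 and 3441 CPM, with the 4 wk library above the 5 wk one. Among 11 genes for cytokines and inflammation 2 were higher and Tnf was lower, against 3.75% and 2.65% of all genes. The median log2 ratio of the list was -0.09. The higher ones were Tnfaip3, an inhibitor of NF-κB signalling, at 64.3, 113, 110, 201 and 228 CPM, and Ptgs2, the inducible cyclooxygenase, with 0, 1, 3, 57 and 19 UMIs. Nfkbid, an atypical IκB protein, was lower, at 407, 854, 447, 93.3 and 192 CPM.

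Stress and immediate early genes, which tissue dissociation is known to induce, did not follow 1 direction. The heat shock genes Hspa1a and Hspa1b were lower, with Hspa1a at 686, 916, 182.5, 80.5 and 170 CPM and Hspa1b at 118, 640, 151, 21.96 and 21.6 CPM. Fos was at 2090, 2335, 1880, 1197 and 4522 CPM and Egr1 at 1919, 2335, 1154, 553 and 3154 CPM, lowest at 5 wk and highest at 6 wk. Of 19 genes of this list 1 was higher (Btg2) and 2 were lower. The median log2 ratio was -0.11, or 0.37 without the 5 wk library, and it lay well below -0.11 without the 6 wk library. The part of dissociation in the results for Tnf and the chemokines was not tested.

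Several of the largest ratios rested on few cells. The 10 highest of the genes past the fold were Mmp12, Cxcl9, Il18bp, Vegfa, Mmp13, Ifit2, Ifit1, Tgm2, Ptgs2 and Lgals3. Mmp12, macrophage elastase, had 0, 0, 1, 96 and 3 UMIs, and 86.0% of them were in 1 cell. Vegfa, the endothelial growth factor, had 0 UMIs in the macrophages of 2, 3 and 4 wk and 88 and 20 UMIs at 5 and 6 wk, spread over 14 and 6 cells. It was at least 14.65-fold higher at 5 and 6 wk, with the floor of 3 UMIs taken over the 3 earlier libraries. Without its richest cell it was at least 9.09-fold higher on the same floor. Mmp13, a collagenase, had 0, 0, 7, 63 and 170 UMIs, in 4 cells at 4 wk, 7 at 5 wk and 13 at 6 wk. In all other cells, which include the 58 cells with macrophage markers left out above, the ratios of Mmp12 and Mmp13 were 19.3 and 38.6. Mmp13 was at 0.151 CPM in all other cells and 0 CPM in other leukocytes. The part of the 58 cells in these ratios was not tested. Tgm2, a transglutaminase, was found in 26 of 53 cells at 5 wk and 22 of 38 at 6 wk against 2 of 7, 0 of 11 and 6 of 28 before, and its ratio was 9.66 (5.31 to 19.6). Lgals3, galectin 3, was at 42.9, 87.9, 201, 1310.5 and 376 CPM.

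The 10 lowest genes past the fold were Ednrb, Lyve1, Hspa1b, Rcan1, Tnf, Abl2, Ccl24, Nfkbid, Hspa1a and Serpinb8. Ednrb, an endothelin receptor, had 14, 15, 27, 6 and 0 UMIs and the lowest ratio, 0.0436 (0.0154 to 0.101). Rcan1, an inhibitor of calcineurin, was at 450, 942, 602 and 168 CPM at 2, 3, 4 and 5 wk and had 0 UMIs in the 38 macrophages of 6 wk. It had been found in 4 of 7, 9 of 11, 21 of 28 and 23 of 53 cells.

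Interferon-induced genes were higher in part. Of 16 compared, 5 were higher and none lower, with a median log2 ratio of 0.65. Ifit1, Ifit2 and Ifit3 had 0 or 1 UMI at 2 and 3 wk and reached 83, 55 and 106 UMIs at 6 wk. Their ratios were 10.2, 13.4 and 4.61 in the macrophages, and in all other cells, which include the 58 cells left out above, they were 8.66, 1.92 and 7.25. Irf7, a transcription factor of this response, was at 42.9, 0, 95.8, 104 and 168 CPM, and Bst2, tetherin, at 193, 339, 402, 688 and 707 CPM. Ifitm3, the most abundant, was at 161, 577.5, 1246, 1137 and 1400 CPM, with 4 wk above 5 wk.

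Genes of phagocytosis were given by the same counts. Of 12 efferocytosis genes compared, which recognise and engulf dying cells, 0 were higher and 0 were lower, against 3.75% and 2.65% of all genes, shares at which a list of this size would hold few or none. The median log2 ratio was 0.0015. Stab1, a scavenger receptor that binds phosphatidylserine, was at 536, 879, 566, 344 and 563 CPM. Mertk, a receptor kinase for apoptotic cells, was at 64.3, 25.1, 119, 75.0 and 67.1 CPM, and Axl, its relative, at 107, 151, 205, 254 and 230 CPM. None of the 6 complement and complement receptor genes apart from C1q passed in either direction, and their median log2 ratio was 0.20. At the same shares of all genes a list of 6 would hold few or none. C3ar1, the C3a receptor, was at 568, 527, 570, 527 and 429 CPM. Among 14 Fc and pattern receptors, Cd14, the endotoxin co-receptor, and Fcgr4 were higher, with a list median of 0.32 on the log2 scale (-0.20 when macrophages with Dcn, Cdh5 or more Amh were kept). Cd14 was at 397, 414, 447, 1023 and 841 CPM, and Fcgr4 had 0, 0, 18, 100 and 66 UMIs. Of 22 identity genes 3 were higher, namely Cd14, Mpeg1 and Irf8, and the median was 0.34, or -0.18 with those cells kept. Mpeg1, a pore-forming protein of phagosomes, was at 96.5, 126, 151, 461 and 326 CPM.

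The genes that chose the cells were described alongside and were not tested. C1qa was at 3687, 5636.5, 6101, 5817 and 5198 CPM and Csf1r at 1243, 1682, 1268.5, 836 and 1294 CPM. Pf4, platelet factor 4, was at 3912, 4218, 2583, 1429.5 and 2344 CPM, and Laptm5 at 750, 942, 986, 1104 and 944 CPM. Against all other cells, 42.1% of the 970 genes with at least 200 UMIs had a ratio of at least 2, a contrast that the rule fixed. The 12 highest ratios were those of Mmp13, C3ar1, Fcgr1, Adgre1, C1qa, Clec4n, C1qc, Ccl12, C1qb, Ms4a7, Cx3cr1 and Pf4. They ran from 895 for Pf4 to 1169.5 for Mmp13.

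Of the 27 lysosomal genes compared, 15 had their highest CPM at 5 wk, as did all 12 lipid handling genes, against 13.4% of the 3359 genes compared. Ctsd, cathepsin D, was at 632, 778, 1045, 5187 and 738 CPM from 2 to 6 wk, so the 5 wk library stood apart and the 6 wk level was 0.142 of it (0.126 to 0.160). Apoe, the lipid transport protein, was at 8178, 18567, 13452, 36026 and 22156 CPM and was found in all 137 cells. Psap, the sphingolipid activator precursor, was at 1179, 1243, 1305, 3565 and 1546 CPM, and Lipa, lysosomal acid lipase, at 193, 126, 123, 426.5 and 235 CPM. Of 27 lysosomal genes Psap and Lipa were higher, and of 12 lipid handling genes Apoe, Abcg1 and Cd9 were higher. None of either list was lower. Over all genes 3.75% were higher and 2.65% lower, shares at which lists of this size would hold few or none. Ctsb, cathepsin B and the most abundant lysosomal gene, was at 2454.5, 2435, 2647, 4658 and 2552 CPM. The list medians were 0.26 and 1.09 on the log2 scale, and that of lipid handling was -0.19 without the 5 wk library, and that of lysosomal genes -0.15 when macrophages with Dcn, Cdh5 or more Amh were kept.

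At 5 wk the Ctsd UMIs were concentrated in cells with Gpnmb, a glycoprotein of lysosomes and melanosomes, which held 2578 of the 2834 Ctsd UMIs. Other genes were less concentrated. The Gpnmb cells held 10749 of the 19683 Apoe UMIs, and 135 Lipa UMIs against 98 in the other macrophages. Gpnmb had 363 UMIs at 5 wk and 1, 0, 2 and 0 at 2, 3, 4 and 6 wk. At 5 wk it was found in 9 of 53 macrophages, 6 of which held at least 10 UMIs, and these 9 cells were deep, with a median of 22608 UMIs against 8783 in the other 44. This group was chosen after its values were seen, all of its cells come from 1 library, and the ratios below have no replicate. Of 1316 genes compared within the library, 94 were at least 2-fold higher in the 9 cells (7.14%) and 266 at least 2-fold lower (20.2%).

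With Gpnmb itself left aside, 11 of the 24 lysosomal genes with at least 60 UMIs at 5 wk were at least 2-fold higher in the Gpnmb cells and 1, Ctsc, was at least 2-fold lower. The median ratio of these 24 lysosomal genes was 1.95. All 11 lipid handling genes were at least 2-fold higher. Ctsd was at 15178 CPM in them and 680 CPM in the other cells, a ratio of 22.3 (19.6 to 25.5). Fabp5, a fatty acid binding protein, was at 5263 against 66.4 CPM, a ratio of 79.3 (53.3 to 123), and Spp1, osteopontin, at 1860.5 against 98.3 CPM. The 5 cells with the most Gpnmb held 2466 of the 2578 Ctsd UMIs of the 9 cells, 867 of the 894 Fabp5 UMIs and 314 of the 316 Spp1 UMIs, so these values are mainly those of 5 cells. Lgals3 was 8.58-fold higher (7.15 to 10.4), Psap 5.55-fold (5.03 to 6.13), Trem2, a lipid receptor, 4.47-fold (3.56 to 5.65) and Lpl, lipoprotein lipase, 4.35-fold (3.42 to 5.56). Of the 96 UMIs of Mmp12 at 5 wk, 95 were in these cells. Atp6v0d2, a subunit of the vacuolar proton pump, had 88 UMIs in them and 5 in the others.

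Identity and inflammatory genes were lower in the same cells. Ccl2 was at 82.4 against 1262 CPM, Ccl7 at 47.1 against 1742 CPM and Cxcl2 at 106 against 1756 CPM. Mgl2, a galactose-binding lectin, had 1 UMI in the 9 cells and 306 in the others. Csf1r was at 412 against 1028 CPM and Mrc1 at 271 against 1038.5 CPM, whereas C1qa, at 5205 against 6093 CPM, was close to the rest. Leaving out macrophages with Gpnmb brought the Psap ratio between ages from 2.13 to 1.185 that of Lipa from 2.45 to 1.775 and that of Apoe from 2.27 to 1.72, none of which then passed the fold.

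Ctsd is shown with the 250 bases before its start at chr7:142387828-142388077 on the minus strand (RefSeq, GRCm38.p6), since it was the most abundant of the 10 genes with the highest ratios in the Gpnmb cells. Capitals mark CACGTG, the palindromic core of the CLEAR element bound by TFEB, a regulator of lysosomal genes.

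Ctsd: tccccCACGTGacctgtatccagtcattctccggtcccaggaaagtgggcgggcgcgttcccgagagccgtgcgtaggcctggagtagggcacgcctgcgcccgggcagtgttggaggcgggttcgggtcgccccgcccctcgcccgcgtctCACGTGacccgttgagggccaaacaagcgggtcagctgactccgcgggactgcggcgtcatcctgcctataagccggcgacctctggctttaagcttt

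The letters began 245 and 98 bases before the start. They were found in 5 of 21 lysosomal genes with a promoter in the table and in 6.02% of all promoters in the same 250 bases. A wider class with at least 2 of Trem2, Gpnmb, Spp1, Fabp5, Cd9 and Lpl held 62.0% of macrophages but also 56.8% of granulosa cells, in which Fabp5 was at 201 CPM, Lpl at 89.5 CPM and Cd9 at 24.6 CPM, so granulosa cells gave no background share for this class. Thinned to 2000 UMIs the shares were 20.9% and 6%. Of 3359 genes, 39 were at least 2-fold higher in this class overall and higher in every library counted (1.16%) and 24 at least 2-fold lower (0.714%). The cells of the class were deeper, with median UMIs of 8364 against 6279 at 4 wk, 10576 against 3651 at 5 wk and 10534 against 9107 at 6 wk, and the part of depth in these counts was not tested. The genes that chose the class were left aside for a ranking of genes with at least 60 UMIs that were higher in each library counted. Among them Il18bp, the interleukin 18 binding protein, had the highest ratio, at 100.2 against 7.74 CPM, and Lgals3 the next, at 905 against 134 CPM. Of the class's UMIs of Il18bp and Lgals3, 80 of 97 and 569 of 876 were in the 9 Gpnmb cells of 5 wk.

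**Figure D5:**
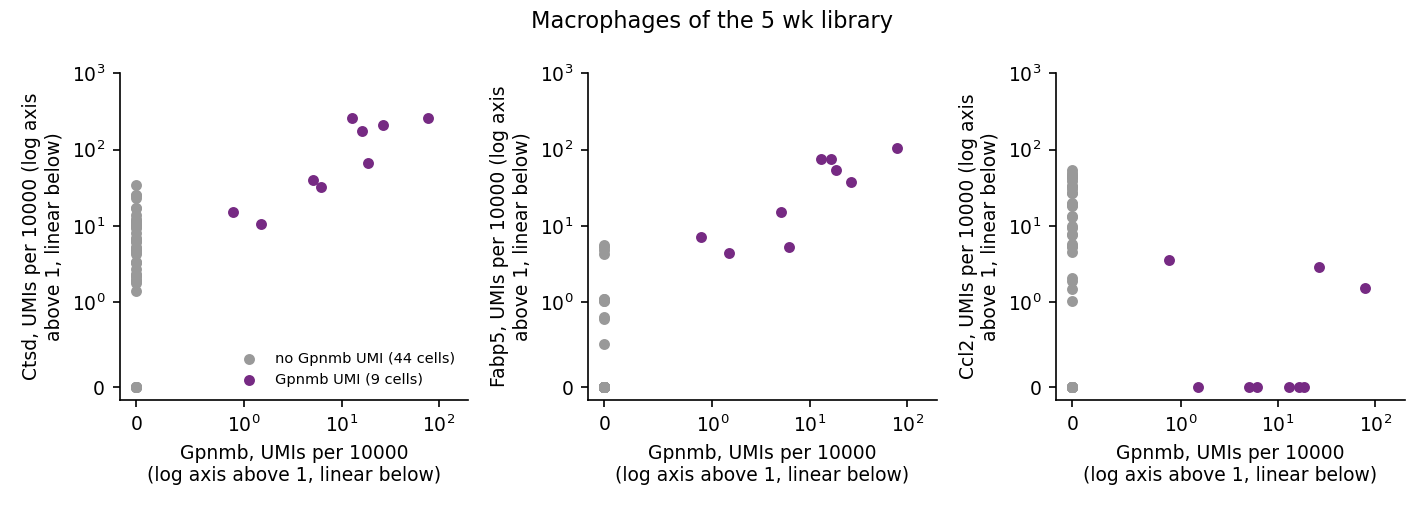
Ctsd, Fabp5 and Ccl2 (y axes) against Gpnmb (x axis), all in UMIs per 10000 UMIs of a cell (logarithmic above 1, linear below), in the 53 macrophages of the 5 wk library. Purple points are the 9 cells with Gpnmb and grey points the other 44; the highest Ctsd and Fabp5 values are in Gpnmb cells and Ccl2 is at 0 in 6 of the 9.

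The 75 macrophages with at least 3 MHC class II UMIs were then set beside the 62 with fewer, some of which held 1 or 2. The 3 class II genes that chose the cells were left aside, and direction was counted in the 4, 5 and 6 wk libraries, where both sides held at least 5 cells. Both sides pooled all 5 libraries, and the cells of 2 and 3 wk were all but 1 on the side with fewer UMIs, so values for 4, 5 and 6 wk alone are given beside those that moved by over 1.5 times and some others. Of 3359 genes, 53 were at least 2-fold higher overall and higher in every library counted (1.58%) and 37 at least 2-fold lower (1.1%). Cd74 led the higher genes, at 8440 against 354 CPM, a ratio of 23.8 (20.6 to 27.6). H2-DMb1 followed the same pattern, at 315 against 36.9 CPM. S100a6 and S100a4, calcium-binding proteins abundant in monocytes, were 16.4-fold (6.83 to 51.3) and 6.99-fold higher (3.04 to 19.8), although S100a4 was found in 7 of the 75 cells. In 4, 5 and 6 wk alone S100a6 had 123 UMIs against 1, a ratio of 57.9 (10.2 to 2304). Ccr2 was at 139 against 16.6 CPM, in 15 of 75 and 3 of 62 cells, and in 4, 5 and 6 wk alone it had 113 UMIs against 1, a ratio of 53.2 (9.35 to 2118). Rsad2, an antiviral protein induced by interferon, Cytip, Lsp1, Plbd1 and Bcl2a1a completed the 10 highest, with ratios from 4.84 to 8.52. In 4, 5 and 6 wk alone these ran from 4.09 to 10.04, with Lsp1 at 9.03 (3.74 to 28.45) in place of 5.33, and S100a4 had 63 UMIs against 0. Il1b was at 2729 against 991 CPM, a ratio of 2.75 (2.51 to 3.03), which was 2.10 (1.90 to 2.32) in 4, 5 and 6 wk alone.

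Among genes lower in each of the 3 libraries counted, Lyve1 had the lowest ratio, at 6.14 against 153 CPM, or 0.0401 (0.0127 to 0.0974). In 4, 5 and 6 wk alone it had 5 UMIs against 23, a ratio of 0.102 (0.0304 to 0.275). Only 4 of the 75 class II cells held a Lyve1 UMI, against 19 of the 62 others. Ccl24 was at 29.5 against 111 CPM, and its ratio of 0.266 was 0.491 (0.265 to 0.910) in 4, 5 and 6 wk alone. F13a1, Folr2 and Cbr2 were at 0.3075 (0.246 to 0.383), 0.3585 (0.268 to 0.476) and 0.373 (0.300 to 0.462) of the level in the others. In 4, 5 and 6 wk alone these ratios were 0.459, 0.390 and 0.5002. Tagln, Myl9 and Sparc, genes of smooth muscle and stroma, were also among the 5 lowest, in 8, 8 and 12 of the 75 cells. Genes of macrophage identity outside the rule differed less. Adgre1 was at 557 against 502 CPM and Trem2 at 386 against 400.4 CPM. At 5 wk the side with fewer class II UMIs held Gpnmb cells of 28743, 19532 and 24448 UMIs. These had 63, 26 and 10 UMIs of Trem2 and 21, 0 and 2 of Il1b. The class II side held Gpnmb cells too, the deepest with 30229 UMIs, 54 of Trem2 and 0 of Il1b. The part of Gpnmb cells in the Trem2 and Il1b ratios was not tested. Ptprc, the leukocyte phosphatase CD45, had a ratio of 1.85 (1.52 to 2.26), Ctss, cathepsin S, of 1.64 (1.49 to 1.82) and Lyz2 of 1.345 (1.29 to 1.41), each higher in all 3 libraries. Median UMIs were 6931 against 6473 at 4 wk, 9646 against 7469 at 5 wk and 10583 against 8255 at 6 wk.

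Dividing macrophages were few at each age. Cells with at least 2 of Mki67, Top2a, Birc5, Cdk1, Ccnb1, Cenpf and Pclaf numbered 2 of 7, 0 of 11, 5 of 28, 8 of 53 and 4 of 38, or 28.6, 0, 17.9, 15.1 and 10.5%. Thinned, they were 28.6, 0, 10.7, 4.35 and 7.89%. Granulosa cells, which divide themselves, were at 40.1%, so no share of background could be read from them. Top2a, the topoisomerase of dividing cells, had 73 UMIs in 2 cells at 2 wk and 65 UMIs in 5 cells at 4 wk. Of 13 division genes compared, 1 was lower (Mcm7) and none higher, and the median log2 ratio was -1.17. The list summed to 8971, 2021, 3390, 2537 and 1979.5 CPM, highest at 2 wk, where the 2 dividing cells were 2 of 7. Stmn1, a regulator of microtubules, was at 1136, 100, 433.5, 234 and 170 CPM.

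Receptors for growth and recruitment were present at all ages. Of 19 cytokine and chemokine receptors compared none was lower, against 2.65% of all genes. At that share a list of this size would hold few or none. The median log2 ratio of the receptors was 0.47, and 2 were higher, against 3.75% of all genes. The other list counts of this paragraph stand beside the same 2 shares. Ccr2 was among those higher. Cx3cr1, the fractalkine receptor and the most abundant of the list, was at 675, 527, 589, 569 and 657 CPM. Among hormone receptors only Nr3c1, the glucocorticoid receptor, passed the minimum of 60 UMIs, at 172, 126, 160, 112 and 151 CPM, and Pgr, the progesterone receptor, had 0 UMIs. Of 10 growth factor genes Vegfa and Pdgfb were higher and Tgfbi lower, with a median log2 ratio of 0.33 that was -0.32 without the 5 wk library. Grn, progranulin, was at 889.6, 1142, 1100, 1138 and 795.6 CPM, and Igf1, insulin-like growth factor 1, was at 354, 364, 192, 547 and 225 CPM. At 5 wk Igf1 was at 1189 CPM in the 9 Gpnmb cells and 257.6 CPM in the other 44. Of 12 iron and heme genes, Slc11a1, a metal transporter of phagosomes, was higher, and Hmox1, heme oxygenase 1, was lower, at 557, 1958, 607, 463 and 347.5 CPM. Fth1, the ferritin heavy chain, was highest at 5 wk, at 7814, 9252, 7812, 16941 and 9176 CPM. At 5 wk Fth1 was at 31539 CPM in the 9 Gpnmb cells and 10356 CPM in the other 44. The median of the list was 0.28, or -0.22 when macrophages with Dcn, Cdh5 or more Amh were kept. Among 8 proteases and inhibitors Mmp12 and Mmp13 were higher, with a median of 0.39. Cst3, cystatin C, the most abundant of that list, was at 2433, 2937.5, 3317, 3644 and 4067 CPM. Of 4 monocyte genes Ccr2 and S100a6 were higher, with a median of 1.13 that was -0.16 when macrophages with Dcn, Cdh5 or more Amh were kept, and Nr4a1, a nuclear receptor, was at 514.5, 163, 265, 436 and 1057 CPM.

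Of 4 genes for ligands of these receptors compared in the macrophages themselves, Ccl2 was lower and none was higher, with a median log2 ratio of -0.12. The ligands were also measured in the surrounding cells. Csf1, a ligand of Csf1r, was at 23.6 CPM in endothelial cells (20.4 to 27.1), 15.3 CPM in stromal cells (14.6 to 15.9), 9.71 CPM in theca cells and 1.61 CPM in granulosa cells. In stromal cells it was at 13.6, 12.1, 13.5, 18.8 and 17.9 CPM from 2 to 6 wk. Il34, the other ligand, was at 2.38 CPM in all other cells together. Cx3cl1, the ligand of Cx3cr1, was at 15.3 CPM in endothelial cells and 7.57 CPM in granulosa cells. Cxcl12, the ligand of Cxcr4, was at 239 CPM in endothelial and 107 CPM in stromal cells.

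RNA of other ovarian cells was present in the macrophages and differed between libraries. The 6 granulosa markers summed to 42.9, 163, 233, 53.1 and 299.6 CPM from 2 to 6 wk, with Inha, a subunit of inhibin, giving 149 of their UMIs. The 7 stromal markers summed to 42.9, 12.6, 210, 34.8 and 120 CPM, led by Col1a2 with 51 UMIs, with Dcn at 0 by the rule. The 4 smooth muscle markers summed to 53.6, 12.6, 265, 12.8 and 177 CPM, led by Tagln with 100 UMIs. All 3 sums were higher at 4 and 6 wk than at 5 wk. The 6 endothelial markers reached 21.6 CPM and the 5 theca markers 75.0 CPM at most, with Cdh5 at 0 by the rule and Insl3 at 0. The lymphatic, pericyte, epithelial, red cell and oocyte lists held 6, 3, 5, 9 and 3 UMIs in all. The neutrophil list was led by Csf3r, with 39 UMIs. The part of this RNA in the gene counts was not tested.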

How the data were processed

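Ovarian cells of 5 libraries, 1 per age, were read from the deposited UMI count matrices, which the authors made with Cell Ranger (3.1.0 for 2, 3 and 4 wk and 6.0.1 for 5 and 6 wk, per the file headers) on mm10. The labels also list Seurat 4.1.0, which was not used here. Counts are whole UMIs per gene and cell, with no normalization, over 31053 genes.

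Macrophages were chosen by the marker rule, and their UMIs were summed per library and divided by the library's macrophage total to give CPM. The 407 listed genes, 1 of which had no row in the files, were in 36 lists; members and lists were chosen with earlier results of these data known. The genes of the lists were named, with the 12 highest over all other cells, the 10 highest and 10 lowest by age past the fold and the 10 highest and 5 lowest of the MHC class II cells. Rankings leave aside mitochondrial genes, ribosomal protein genes and genes without a name. Ratios carry exact 95% intervals for counting error (binomial on the split of UMIs), shares exact binomial ones, and a count of 0 was set to a floor of 3 UMIs. That floor was 32.2, 37.7, 13.7, 5.49 and 7.19 CPM from 2 to 6 wk. With 1 library per age no test between ages could be made and no p-value is given. The same holds for splits of cells within a library, since cells are not replicates.

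Granulosa cells were cells with at least 3 Amh UMIs and no Dcn. With at most 2 Amh UMIs, stromal cells had at least 3 of Dcn and no Cdh5, endothelial cells had Cdh5 and Pecam1 and no Dcn, and theca cells had at least 3 of Cyp17a1. For comparisons across depth, the 129 macrophages with at least 2000 UMIs were thinned to 2000 UMIs and the others were left out. From each library 500 granulosa cells were thinned likewise. Doublets were called with Scrublet (scanpy 1.11.5) and none was removed. Python 3.11.15, numpy 2.4.6, scipy 1.17.1 and pandas 2.3.3 were used, and the calculation was tested on simulated data. The simulated counts were Poisson draws per library without variation between cells. They do not show how the intervals or the fold rule behave for genes with most UMIs in few cells. Alternatives covered the cell filter, the marker rule, normalization, the minimum count, the fold and each library left out. Another 5 were chosen after seeing the data. Some listed genes, and a class of cells that needed them, are not reported here.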

Additional observations from a re-analysis of the deposited data

How the results depend on the processing

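Of 810 values recomputed under alternatives, 696 kept their direction and size, 95 moved and 19 changed sign. The number of genes higher at 5 and 6 wk was 126 and became 316 when cells with Dcn, Cdh5 or more Amh UMIs were kept, 338 with a minimum of 20 UMIs, 256 with a fold of 1.5 and 245 over 2 and 3 wk alone. The number lower was 89 and became 241, 297 and 164 under the last 3 of these. With each library left out in turn, the higher count ran from 118 to 211 (211 without 4 wk) and the lower from 95 to 127. The same libraries left out gave 45.45 to 58.7% of macrophages in the MHC class II class (45.45% without 6 wk), 51.5 to 59.5% in the resident class, 55.95 to 66.1% in the lipid class and 12.8 to 15.15% in the dividing class. The MHC class II share of 54.7% became 67.15% at 1 or more UMIs and 45.3% at 10 or more. Thinning gave 45.7% for MHC class II, 34.9% for resident, 20.9% for lipid and 7.75% for dividing cells. These shares are over 129 cells, so fewer UMIs per cell and the loss of the shallowest cells are both part of its construction. The dividing share was 22.05% with the excluded cells kept. The cause of the other changes was not tested.

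With the excluded cells kept, the median log2 ratio changed sign for macrophage identity (-0.18), monocyte (-0.16), lysosome (-0.15), iron and heme (-0.22), Fc and pattern receptors (-0.20), B cell (-0.29), granulosa (0.59) and smooth muscle genes (0.82). Without 5 wk it changed sign for lipid handling (-0.19), growth factors (-0.32), immediate early and stress (0.37), granulosa (0.63) and smooth muscle genes (0.66). With each library left out, the medians reached 0.42 for growth factors without 4 wk, and -0.76 for immediate early and stress, -1.60 for granulosa and -3.02 for smooth muscle genes without 6 wk. Granulosa and smooth muscle medians, each of 1 gene, were 0.11 and 0.25 with libraries weighted equally, and 0.48 and 1.22 both without 4 wk and over 2 and 3 wk alone. The cause was not tested.

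The alternatives added after seeing the data bear on which genes were counted. Over 2 and 3 wk alone, 108 of the 126 higher and 83 of the 89 lower genes were kept. Without the richest cell of each gene 89 and 47 were kept, with Mmp12, Cxcl9, Ptgs2 and Ednrb among those lost. Without cells holding Gpnmb 91 and 57 were kept, with Mmp12, Il18bp, Ednrb and Hspa1a lost. The ratio of Ednrb was 0.0581 and 0.0419 under these settings, where its 62 UMIs no longer reached the minimum of 60. Mmp12, Cxcl9 and Ptgs2 without their richest cell, and Mmp12 and Il18bp without Gpnmb cells, also no longer reached 60 UMIs. Their ratios under these settings are not given here, so the lost calls do not show that the ratios were lost. Hspa1a had 4 UMIs in the 9 Gpnmb cells of 5 wk and 40 in the others, and the reason for its loss was not tested. In the MHC class II split, 53 higher and 37 lower genes became 52 and 44 in 4, 5 and 6 wk alone. No paired analysis was possible because each age had 1 library. Depth limits the 2 and 3 wk libraries most, with 7 and 11 macrophages.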
